A study of Mus musculus with 5 samples.

Results

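The membrane skeleton of T cells was described here through 9 genes, measured by 31 of the 45037 probe sets on the array other than controls. The members are the spectrin genes Sptbn1 and Sptan1, the ERM genes Ezr, Msn and Rdx, the adducin genes Add1 and Add3, the ankyrin gene Ank3 and the coronin gene Coro1a. They were taken as every probe set whose annotation gives exactly 1 gene symbol equal to 1 of 10 listed names. Epb41, the remaining name, was not analysed here. Of the 31 probe sets, 26 passed a filter on dim signals and were tested, and each of the 9 genes kept at least 2.

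One group of cells was G9C8, a single CD8 T cell clone specific for an insulin B chain peptide, cultured from 3 separately frozen vials. It was set against spleen cells from 2 NOD.G9C8 mice aged 4 to 8 weeks, transgenic animals on the NOD/LtJ background whose T cells bear the receptor of the clone. All 5 cultures had 10 µg/ml of the peptide for 3 days and then IL2 at 5 IU/ml for 2 days, and each gave 1 Affymetrix array of total RNA. No sort of the spleen cells is named in the labels, and the promoter that drives the transgene is not given in the sources used here. P-values therefore reflect how much vials of 1 clone, and 2 mice, vary.

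Spectrin is a long, flexible rod of alpha and beta chains wound around each other. Its ends meet at short actin filaments, where adducin and proteins of the Epb41 family hold the junction, and ankyrin ties the beta chain to membrane proteins. The ERM proteins ezrin, moesin and radixin link membrane glycoproteins to cortical actin; they fold shut in the cytosol and open after binding a phosphoinositide lipid and being phosphorylated near the C terminus. In lymphocytes they shape microvilli and the pole opposite the immune synapse, and coronin 1A, a regulator of actin branching, is abundant in these cells.

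Sptbn1, which encodes the main beta spectrin of cells other than erythrocytes, was far lower in the clone. Its alpha partner Sptan1 was modestly higher at its brighter probe set. Ezr was higher at its brightest probe set, Add3 lower, and Add1 and Coro1a did not pass the test. For Sptan1, Ezr, Msn, Rdx and Ank3 the outcome turned on the probe set, and for Add3 the less specific probe set was not called. At 1 probe set per gene, the brightest, 4 members were called higher (Sptan1, Ezr, Rdx, Ank3), 3 lower (Sptbn1, Msn, Add3) and 2 were not called, with limma and an adjusted p under 0.05. Of all 12446 genes tested, 43.8% were called, 22% higher and 21.7% lower, so that calls are common among genes at large. The groups did not overlap for 7 of the 9 members, against 64.5% of all genes tested. At the level of probe sets, 4 of the 26 were called higher, 10 lower and 12 not called, against 41.9% called among all 27022 probe sets tested, 19.8% higher and 22.1% lower.

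**Figure D1:**
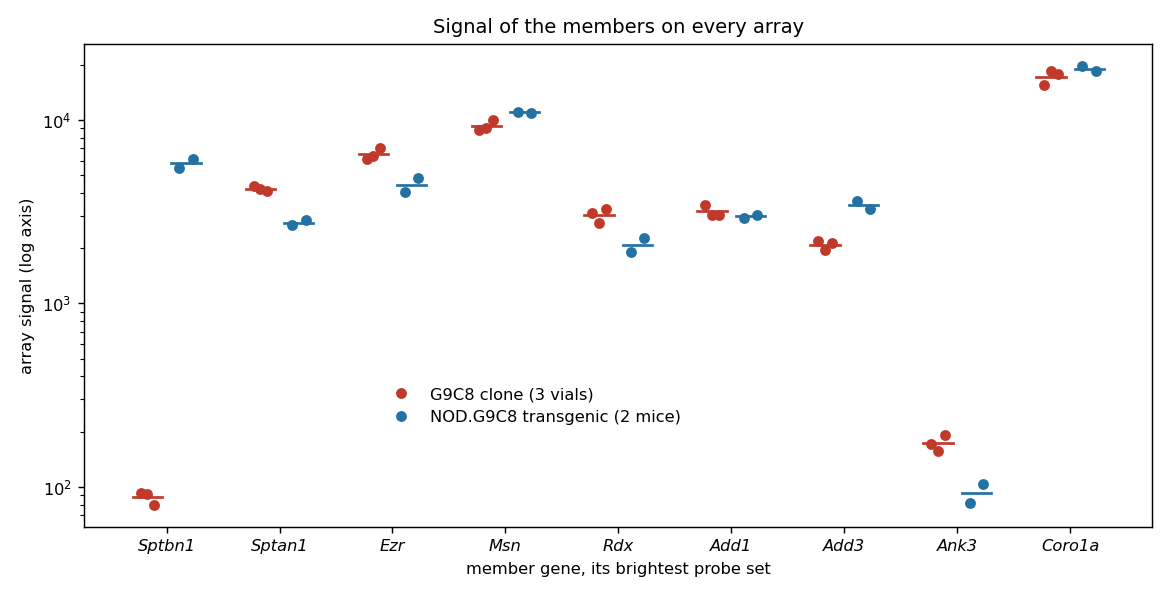
Array signal on a log axis for the brightest probe set of each of the 9 members, with 1 point per array and a line at the group mean (3 clone arrays in red, 2 transgenic arrays in blue). Sptbn1 lies between 79.8 and 92.7 in clone cells and at 5494.6 and 6156.5 in transgenic cells, and the other members differ by less than 2-fold; heights of different genes are not comparable.

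Array signals of the brightest Sptbn1 probe set, 1452143_at, were 92.7, 91.7 and 79.8 in the 3 clone cultures, against 5494.6 and 6156.5 in the 2 transgenic cultures. The groups lay far apart, and the clone arrays were close to each other. Means were 88.1 ± 7.18 in clone (SD, n = 3) and 5826 ± 468 in transgenic cells (SD, n = 2). The difference on the log2(signal + 20) scale, clone minus transgenic, was -5.76 (SE 0.13; 95% confidence interval -6.06 to -5.45; limma adjusted p = 6.63e-08), a 54.1-fold lower value on that scale. It was the ninth lowest difference among the genes tested. In rank within the array, this probe set stood at percentiles 39.1 to 42.7 of all probe sets in clone cells and at 97.7 and 98.1 in transgenic cells.

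The other Sptbn1 probe sets ran the same way. Signals of 1419256_at were 8.2, 28.8 and 11.8 in clone cells, against 2121.8 and 2188.8 in transgenic cells (difference -5.95, SE 0.26, adjusted p = 1.15e-06 over all probe sets). Probe set 1419255_at had 244.1, 276.2 and 240.9 in clone cells, against 1486.6 and 1273.5 in transgenic cells (-2.35, SE 0.14, adjusted p = 6.14e-06). It was the only tested Sptbn1 probe set whose clone signals all stayed above 200.

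Signals of 1444089_at were 103.2, 96.7 and 67.5 in clone cells, against 482.4 and 550.7 in transgenic cells, a difference of -2.31 (SE 0.21). Those of 1451830_a_at were 51.8, 16.9 and 11.1 in clone cells, against 406.5 and 354.5 in transgenic cells, a difference of -3.20 (SE 0.38). For all 5 tested probe sets the groups did not overlap, as was so for 18 of the 26 member probe sets and for 63.8% of all probe sets tested. A sixth, 1441507_at, gave 2.5 to 3.6 in clone cells and 2.7 and 4.6 in transgenic cells and was not tested.

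The size of the Sptbn1 difference depended on the probe set. The brightest fell by more than 1419255_at did, and the contrast of the pair within each array changed by -3.40 between the groups (SE 0.15; limma adjusted p = 0.000752 over 9876 such contrasts, of which 26.9% were called). Against 1419256_at the contrast was not called (0.19, 95% confidence interval -0.41 to 0.79). The clone mean of 3 of the 5 probe sets lay under the filter signal of 88.2, so these were tested only through their transgenic signals. For these 3 the direction was set by the filter. The table holds no detection calls, and fold changes against such dim signals depend on the pseudocount.

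**Figure D2:**
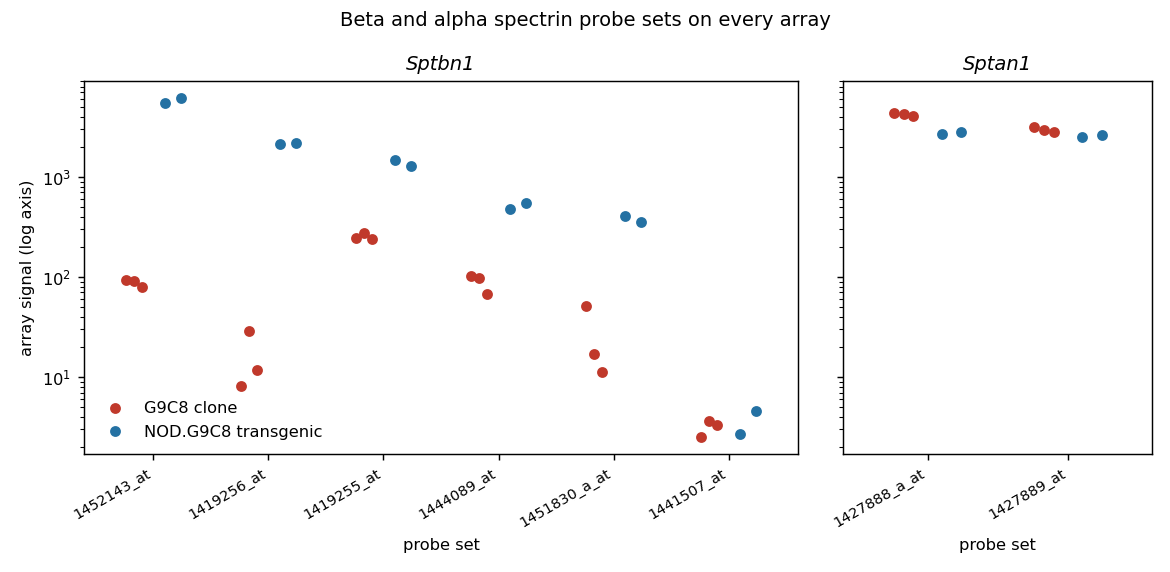
Array signal on a log axis for the 6 probe sets of Sptbn1 and the 2 of Sptan1, with 1 point per array (clone in red, transgenic in blue). Every Sptbn1 probe set except 1441507_at, which is dim on all arrays, is lower in clone cells, and the brighter Sptan1 probe set, 1427888_a_at, is higher.

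Alpha spectrin did not follow. Sptan1, which encodes the alpha chain that pairs with the product of Sptbn1, gave 4378.7, 4213.5 and 4086.6 in clone cells, against 2673.7 and 2846.0 in transgenic cells, for its brighter probe set 1427888_a_at. All clone arrays lay above both transgenic arrays, and the difference was 0.61 (SE 0.09; 0.42 to 0.81; adjusted p = 0.000629), 1.53-fold. The second probe set, 1427889_at, gave 3191.7, 2940.1 and 2814.7 in clone cells, against 2515.5 and 2626.3 in transgenic cells (0.21, adjusted p = 0.115 over all probe sets). These groups did not overlap either, but the difference did not pass the test, and the contrast of the 2 probe sets did (0.40, SE 0.11, adjusted p = 0.0427). Within arrays, the log2 value of Sptan1 minus that of Sptbn1 was 5.29, 5.24 and 5.36 in clone cells, against -1.03 and -1.11 in transgenic cells. Probe sets differ in brightness for equal RNA, so only the change of 6.37 between the groups can be read. This change is given without a test and holds for the brightest probe sets only. The clone mean of 1452143_at, 88.1, lay just under the filter signal of 88.2. Sptbn1 differed by -5.76 at 1452143_at but by -2.35 at 1419255_at, so the size of the change depends on the probe set.

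Promoter windows of these 2 genes, which encode the 2 chains of 1 rod, are shown because their brightest probe sets moved in opposite directions. The sequences are from RefSeq (GRCm38.p6), 300 bases each, from 250 before to 50 after an annotated start, 5′ to 3′ on the gene's strand. Capitals mark the GC box GGGCGG, bound by SP and KLF factors, and the ETS core CCGGAAG, on either strand; no matches of the 2 motifs overlap here.
Sptbn1, chr11:30198208-30198507, minus strand: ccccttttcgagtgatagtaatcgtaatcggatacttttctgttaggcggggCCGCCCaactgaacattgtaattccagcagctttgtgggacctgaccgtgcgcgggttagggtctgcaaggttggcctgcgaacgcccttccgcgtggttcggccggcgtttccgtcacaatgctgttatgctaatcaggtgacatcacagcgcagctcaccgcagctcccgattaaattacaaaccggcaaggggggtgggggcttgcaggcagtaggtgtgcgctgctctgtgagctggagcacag
Sptbn1, chr11:30219723-30220022, minus strand: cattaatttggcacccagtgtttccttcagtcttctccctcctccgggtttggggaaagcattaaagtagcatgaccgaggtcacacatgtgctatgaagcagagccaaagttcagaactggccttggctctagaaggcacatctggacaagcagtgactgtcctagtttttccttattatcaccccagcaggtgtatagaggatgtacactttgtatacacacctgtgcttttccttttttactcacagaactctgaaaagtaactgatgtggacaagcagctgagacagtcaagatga
Sptan1, chr2:29965310-29965609, plus strand: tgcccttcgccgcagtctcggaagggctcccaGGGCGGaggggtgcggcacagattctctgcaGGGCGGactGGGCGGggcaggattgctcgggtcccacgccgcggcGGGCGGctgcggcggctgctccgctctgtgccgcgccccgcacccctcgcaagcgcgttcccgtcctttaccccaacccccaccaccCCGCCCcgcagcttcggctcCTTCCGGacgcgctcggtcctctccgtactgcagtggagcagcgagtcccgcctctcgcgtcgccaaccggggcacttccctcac
The first Sptbn1 sequence holds 1 GC box and no ETS core, and the second holds neither. Sptan1 holds 5 GC boxes and 1 ETS core. Among 32851 promoters of this length, 35.7% hold the GC box and 8.86% the ETS core. The first Sptbn1 sequence holds 21 CpG dinucleotides, the second 2 and that of Sptan1 37, against a median of 7. Sptbn1 lies on the minus strand and reaches to position 30268384 of chromosome 11, its 5′ end. Both Sptbn1 windows are therefore at annotated starts inside the gene, and no window at its 5′ end is shown. The arrays do not say which start was used, and these matches are descriptions of letters.

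Add3, the gamma adducin gene of the actin junction, was lower in clone cells. Its brightest probe set, 1423298_at, gave 2181.2, 1964.2 and 2138.5 in clone cells, against 3595.0 and 3254.1 in transgenic cells. The groups did not overlap (difference -0.70, SE 0.10; -0.92 to -0.48; adjusted p = 0.000558). Probe sets 1426574_a_at (-0.95) and 1423297_at (-0.57) were also called lower. The fourth, 1456162_x_at, of a type that can bind unrelated transcripts, was not called (-0.17; -0.66 to 0.32).

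Add1, encoding alpha adducin, which pairs with gamma adducin outside erythroid cells, gave 3445.3, 3023.2 and 3042.4 in clone cells, against 2933.0 and 3041.7 in transgenic cells. The groups overlapped, and the difference of 0.08 was not called (-0.13 to 0.30; adjusted p = 0.517). None of its 3 probe sets was called by limma, and none had an unadjusted p under 0.05, with differences of 0.04 to 0.22. Within arrays, the log2 value of Add3 minus that of Add1 was lower in clone cells by a change of -0.79.

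Ank3, the gene of ankyrin G, was dim throughout. Of its 6 probe sets, 4 did not pass the filter. Probe set 1425202_a_at gave 170.8, 156.9 and 192.6 in clone cells, against 81.3 and 103.7 in transgenic cells (0.78, SE 0.23; 0.27 to 1.30; adjusted p = 0.0218). Clone arrays lay above both transgenic arrays, but near the middle of the arrays' range, at percentiles 53.5 to 58.0. The other tested probe set, 1457288_at, was not called (-0.16; -0.71 to 0.39), and the contrast between the 2 was (0.94, SE 0.20, adjusted p = 0.0211). The call also ended in 6 of 15 alternative settings, among them leaving out the first transgenic (0.64, adjusted p = 0.137), the first clone (0.79, adjusted p = 0.05002) or the third clone array (0.71, adjusted p = 0.0637).

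Ezr, the ezrin gene, was called higher at its brightest probe set. Probe set 1450850_at gave 6154.3, 6352.6 and 7040.9 in clone cells, against 4073.1 and 4820.5 in transgenic cells. The groups did not overlap, with means of 6516 ± 465 in clone (SD, n = 3) and 4447 ± 528 in transgenic cells (SD, n = 2), and the difference was 0.55 (SE 0.10; 0.31 to 0.79; adjusted p = 0.00293). A second probe set of the less specific type, 1456725_x_at, gave 841.1, 873.0 and 1270.2 in clone cells, against 1384.4 and 515.0 in transgenic cells. The 2 mice spanned the whole clone range there, and no call was made (0.20; -0.61 to 1.01), although one was without the first transgenic array (0.90, adjusted p = 0.0293). The gene's call ended with the mean over both probe sets (0.38, adjusted p = 0.130).

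Msn encodes moesin, the most abundant ERM protein of lymphocytes. Its brighter probe set, 1421814_at, gave 8841.6, 9033.7 and 10005.0 in clone cells, against 11117.8 and 10862.2 in transgenic cells. All clone arrays were lower, by a small difference of -0.24 (SE 0.09; -0.44 to -0.05) that lay at the threshold, with adjusted p = 0.0476 over genes and 0.0538 over probe sets. That call ended in 8 of 16 alternatives, with adjusted p = 0.111 without the first clone, 0.0753 without the second clone, 0.210 without the first transgenic and 0.151 without the second transgenic array. The dimmer probe set, 1450379_at, gave 2812.2, 2238.7 and 2881.3 in clone cells, against 5354.1 and 5184.1 in transgenic cells (-0.998, SE 0.12, adjusted p = 0.000310). The differences of the 2 probe sets were unequal, with a contrast of 0.75 (SE 0.15, adjusted p = 0.0201). Within arrays, the log2 value of Ezr minus that of Msn was higher in clone cells by a change of 0.80, at their brightest probe sets.

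Rdx, the radixin gene, had probe sets called in opposite directions, the only member to do so. Probe set 1416179_a_at gave 3123.6, 2760.4 and 3271.5 in clone cells, against 1898.8 and 2259.8 in transgenic cells (0.55, SE 0.12, adjusted p = 0.00566 over all probe sets). Probe set 1448236_at gave 2271.5, 2095.0 and 2336.7 in clone cells, against 3491.7 and 3046.7 in transgenic cells (-0.54, SE 0.10, adjusted p = 0.00332). Neither pair of groups overlapped. The contrast between the 2 changed by 1.09 (SE 0.16, adjusted p = 0.00823), and the third probe set, 1416180_a_at, was not called (-0.02; -0.33 to 0.28). Their mean signals over the 5 arrays, 2663 and 2648, were nearly equal, so the choice of the brightest probe set alone set the direction at the level of genes. The mean over the 3 probe sets differed by -0.01 (adjusted p = 0.973). Without the first transgenic array, 1416179_a_at was not called (0.43, adjusted p = 0.0646). No direction is given for Rdx as a gene.

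**Figure D3:**
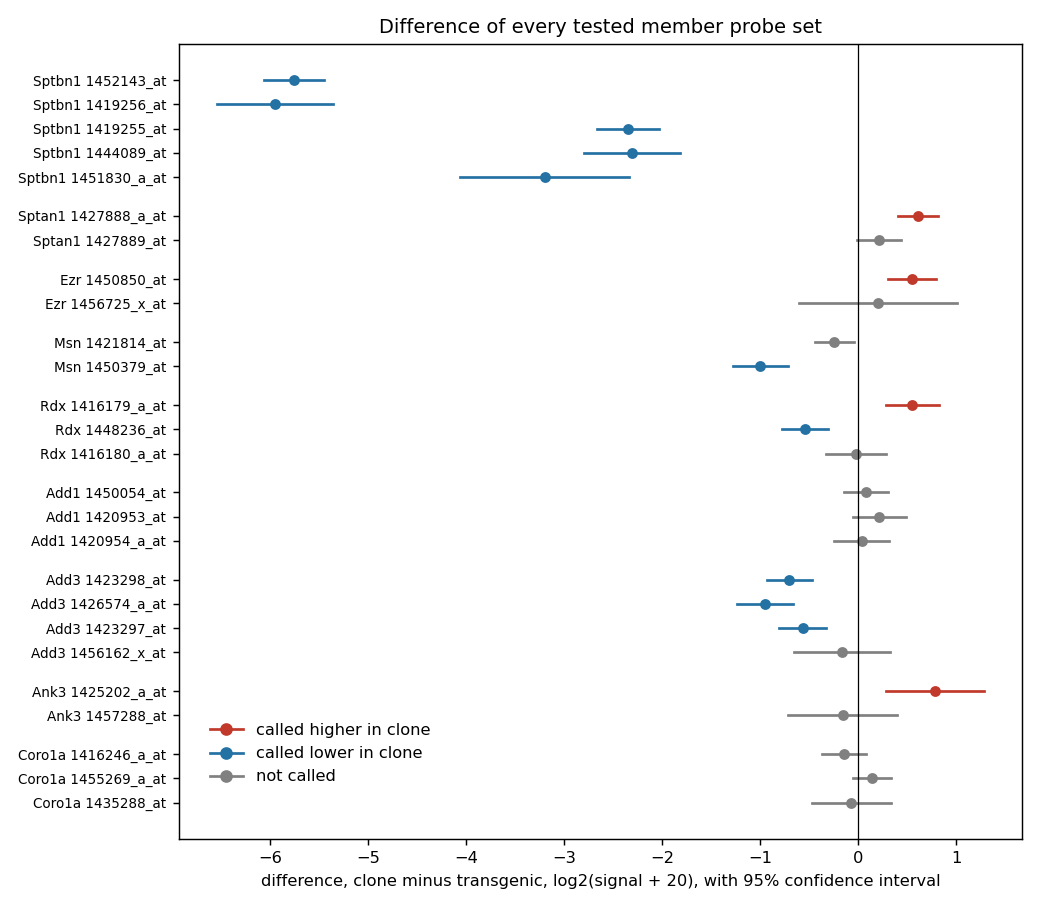
Difference between clone and transgenic cells on the log2(signal + 20) scale for the 26 tested member probe sets, with 95% confidence intervals (red, called higher in clone; blue, called lower; grey, not called). The 5 Sptbn1 probe sets range from -5.95 to -2.31, while all other members lie between -0.998 and 0.78, and Rdx has a called probe set on either side of 0.

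Coro1a encodes coronin 1A, which human and mouse T cells need for survival and migration. Its brightest probe set, 1416246_a_at, gave 15452.2, 18402.2 and 17878.5 in clone cells, against 19706.9 and 18389.6 in transgenic cells. The groups overlapped, and the difference of -0.15 was not called (-0.37 to 0.07; adjusted p = 0.257). These signals lay in the top 1% of each array. The other probe sets differed by 0.14 (1455269_a_at) and -0.07 (1435288_at) and were not called.

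Across the 9 genes, 7 of 17 contrasts between the brightest probe set and another of the same gene were called. Of all 9876 such contrasts tested, 26.9% were called. Sptbn1 was the only called member with every tested probe set called in the same direction. Its 5 probe sets were the only ones of the 26 to be called at a difference of 2-fold or more. Of these 5, 3 had a clone mean under the filter signal and were tested only through their transgenic signals. The direction of these 3 was therefore set by the filter and adds no support. Only 1419255_at and 1444089_at had clone means above the filter signal, at 253.7 and 89.1. The share of all probe sets called at 2-fold or more is not given here. At the level of genes, Sptbn1 was the only member called at 2-fold or more. Among all genes tested, 7.91% were called at least 2-fold lower and 6.84% at least 2-fold higher.

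Other genes of the pathway were taken from 5 lists of 88 genes, of which 79 had a probe set named here and 73 were tested. Of these, 12 were called higher, 23 lower and 38 not called, with a median difference of -0.07, against -0.01 over all genes tested. Over all genes tested 22% were called higher and 21.7% lower, the background for these counts and for those of each list. Among relatives of the spectrin, adducin, Epb41 and ankyrin genes and the proteins that cap or coat actin at the junction, limma called none of 16 higher, 4 lower and 12 neither way (median -0.14); at an unadjusted p under 0.05, 0 were higher and 5 lower. Epb41l2, a relative of Epb41, gave 220.6, 204.5 and 334.9 in clone cells, against 697.1 and 794.3 in transgenic cells (-1.51, adjusted p = 0.000632). Tmod3, which caps the slow-growing end of actin filaments, was lower by a difference of -0.89, and Tmod4, a relative best known from muscle, by -0.76. The Tmod4 call ended without the third clone (adjusted p = 0.0526) or the second transgenic array (0.199).

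Of the other beta spectrin genes, 2 had values here. Sptb, the beta spectrin of erythrocytes, gave 255.3, 238.9 and 256.4 in clone cells, against 212.3 and 218.8 in transgenic cells (0.20, adjusted p = 0.369). Sptbn4 gave 31.7, 34.1 and 88.6 in clone cells, against 99.8 and 78.1 in transgenic cells, and did not pass the filter. Both genes were named after their values were seen.

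Kinases, switches and scaffolds of ERM proteins went both ways, with 3 of 19 higher, 7 lower and 9 not called (median 0.09). The higher ones were Rhoa, Rock1 and Ppp1r12a. Rhoa, a small GTPase that acts on the actin cortex, gave 10963.3, 11467.3 and 11915.3 in clone cells, against 7350.9 and 8382.8 in transgenic cells (0.54, adjusted p = 0.00147). Rock1, the kinase it activates, differed by 0.47 and Ppp1r12a, the targeting subunit of myosin phosphatase, by 0.38. Both calls ended without the first transgenic array, at 0.24 (adjusted p = 0.152) and 0.29 (0.0980).

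Prkcq, the protein kinase C isoform of the T cell synapse, gave 1478.6, 1432.7 and 1149.3 in clone cells, against 5125.8 and 5176.5 in transgenic cells (-1.92). Plcg1, which splits the phosphoinositide that opens ERM proteins, gave 1370.0, 1294.1 and 1216.7 in clone cells, against 3834.1 and 3902.9 in transgenic cells (-1.57). Stk4, a kinase of the Hippo pathway, was lower too (-0.72). Stk10, an ERM kinase of lymphocytes that was named after its values were seen, gave 2004.2, 2272.6 and 2973.8 in clone cells, against 2105.0 and 2377.4 in transgenic cells (0.09; adjusted p = 0.679).

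The list of membrane glycoproteins and adaptors linked to ERM proteins, not all by direct binding, comprised 9 tested genes. Of these, 6 were lower, 1 higher and 2 uncalled (median -0.59). The higher one was Cd44, the hyaluronan receptor, with 3774.9, 3384.9 and 4660.1 in clone cells, against 1569.1 and 1558.9 in transgenic cells (1.31, SE 0.13, adjusted p = 0.000111). S1pr1, the receptor for exit from lymph nodes, gave 854.0, 1081.9 and 928.8 in clone cells, against 4806.4 and 4593.0 in transgenic cells (-2.28). Cd2, an adhesion receptor, differed by -1.75 and Pag1, a membrane adaptor tied to ezrin through a scaffold protein, by -1.10. With the mean over its probe sets the Pag1 call ended (-0.50, adjusted p = 0.0819).

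Coronins and the machinery of branched actin had 6 of 22 genes higher, 5 lower and 11 not called (median 0.10). Coro2a, a relative of Coro1a, gave 2670.1, 2305.5 and 2755.3 in clone cells, against 739.9 and 778.9 in transgenic cells (1.73, SE 0.11, adjusted p = 8.9e-06). Hcls1, a cortactin relative of blood cells, differed by 0.59 and the Arp complex subunit gene Arpc1a by 0.52. Ssh2, a phosphatase that activates the actin-severing protein cofilin, gave 839.8, 816.0 and 858.2 in clone cells, against 4111.0 and 4033.6 in transgenic cells (-2.25, SE 0.09). Its relative Ssh1 (-0.79) and Wipf1, the partner of the actin nucleation factor gene Was (-0.76), were lower as well.

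The last list held calpain genes, only some of whose products are proteases known to cut spectrin, and the gene of their inhibitor calpastatin. Of its 7 genes, 2 were higher, 1 lower and 4 not called (median 0.17). Capn2, the catalytic subunit of a calpain, gave 2671.9, 2496.6 and 2672.1 in clone cells, against 943.2 and 1165.1 in transgenic cells (1.30, SE 0.11). Cast, encoding the inhibitor, gave 2786.2, 2423.1 and 2704.9 in clone cells, against 1336.3 and 1385.7 in transgenic cells (0.94), although the mean over its probe sets was not called (0.21, adjusted p = 0.0808). Capn7 was lower (-0.78). Of the 73 tested genes of the 5 lists, 3 were called at least 2-fold higher (Cd44, Coro2a and Capn2) and 7 at least 2-fold lower. Among all genes tested, 6.84% were called at least 2-fold higher and 7.91% at least 2-fold lower.

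**Figure D4:**
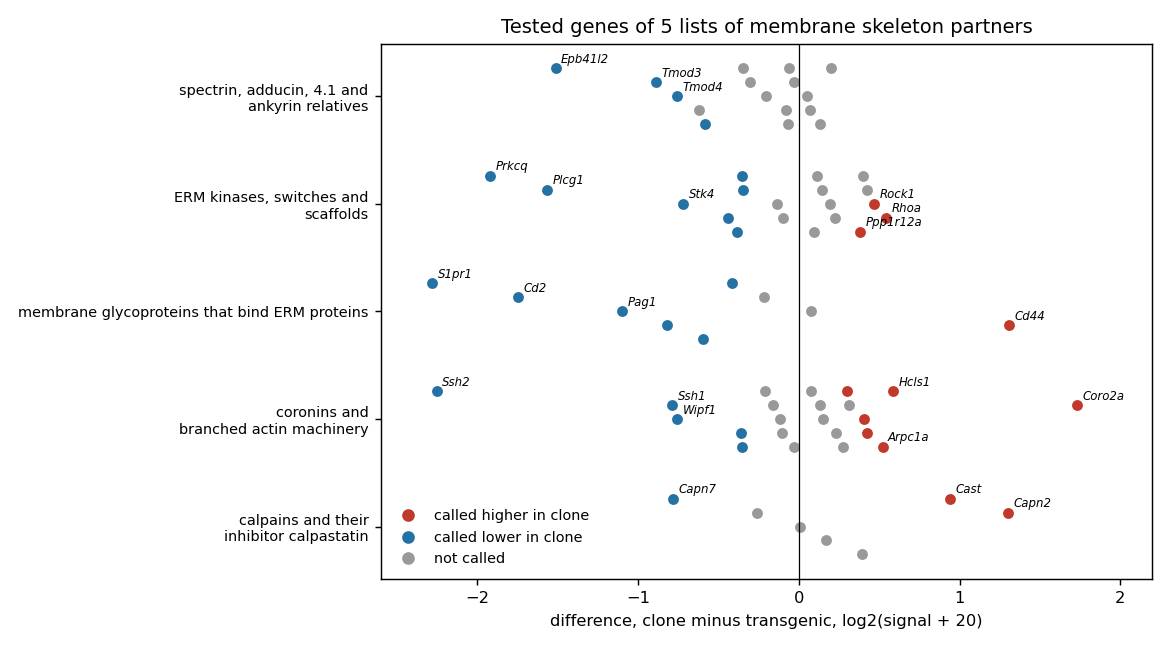
Difference between clone and transgenic cells on the log2(signal + 20) scale for the tested genes of 5 lists of partners, with 1 point per gene (red, called higher in clone; blue, called lower; grey, not called). Most genes lie within 1 of 0 on either side, with Ssh2 at -2.25 and S1pr1 at -2.28 on the low end and Coro2a at 1.73 on the high end; vertical position within a list has no meaning.

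T cell markers were bright in both groups, with summed signals of 7 genes of 63811 to 74274 in clone and 82157 and 89657 in transgenic cells. Of these 7, 4 were lower in clone cells (Cd2 by -1.75, Cd8a by -0.68, Cd8b1 by -0.65, Cd3d by -0.49) and none higher, also at an unadjusted p under 0.05. Over all genes tested 22% were called higher and 21.7% lower, the background for every count of markers here. Of 8 tested myeloid markers, 7 were lower in clone cells and none higher by limma (1 at an unadjusted p under 0.05). The summed signal of 11 myeloid genes was 5134 to 5752 in clone, against 16259 and 17417 in transgenic cells. Of 5 tested B and plasma cell markers 2 were lower and 3 not called (Ms4a1, Pax5 and Cd22). The lower ones were Cd79b, with means of 26.7 in clone and 624 in transgenic cells, and Sdc1, with 44.0 and 226. The 7 B and plasma cell genes with a probe set summed to 733 to 1068 in clone, against 1761 and 1597 in transgenic cells. The 6 erythroid markers with a probe set summed to 616 to 792 in clone, against 790 and 737 in transgenic cells, and neither of the 2 tested was called, also at an unadjusted p under 0.05. Lower in clone were also 2 of 5 tested dendritic cell markers, 1 of 3 of platelets and 1 of 2 of stroma and endothelium, with none higher at an unadjusted p under 0.05. Of 3 NK cell markers only Eomes, which CD8 T cells also express, was tested, and it was lower (-4.14), while Klra8 averaged 49.1 in clone and 15.8 in transgenic cells and Ncr1 83.2 in clone and 66.9 in transgenic cells, both under the filter. The called markers Ccl6, Cd14, Fcer1g, Cd79b, Sdc1 and Eomes had clone means of 14.3, 40.4, 62.2, 26.7, 44.0 and 72.8. These means lay under the filter signal of 88.2, so these genes were tested only through their transgenic signals. Their direction was therefore set by the filter. The lowest marker signal on any array was 2.7. The part of other cells in these results was not tested, and fewer cells of a type and less RNA per cell cannot be told apart in these cultures.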

How the data were processed

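Total RNA of 5 cultures was labelled as biotinylated cRNA from 8 µg and measured on Affymetrix mouse arrays, per the labels' protocols. The authors deposited 1 intensity per probe set and array, on a linear scale and made with GCOS, per the submitters' processing notes (version not given). The trimmed mean, leaving out 2% at each end, was about 500 on every array, and values were used as deposited, as log2(signal + 20). No detection calls, scan dates or batches are given in the sources used here. The number of arrays limits the precision: the median SE of a difference was 0.16.

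Of 45101 probe sets, 64 are controls and were left out, and 34945 carry 1 symbol in the platform annotation. A probe set was kept where its mean signal reached 88.2, the 40th percentile. The fit was run on 12446 genes, each by its brightest probe set, on all 27022 probe sets and on 9876 contrasts between probe sets of a gene, the last chosen after the data were seen. Each was a two-sided limma 3.58.1 fit in R 4.3.3 (lmFit, then eBayes with trend) of clone minus transgenic, with Benjamini-Hochberg adjustment over the whole table and 3 residual degrees of freedom for the genes. Contrasts between 2 probe sets are the brighter minus the other.

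The members and gene lists were chosen with earlier results of these data known. All members are named, and of each partner list up to 3 called genes with the largest difference in each direction whose groups do not overlap. Replicate numbers occur in both groups. For a vial and a mouse of the same number, deviations from the group means over 12446 genes had r = -0.03 for number 1 and -0.08 for number 2. With only 2 transgenic arrays, their deviations are exact opposites, and so is each r with the other mouse. This check therefore cannot settle whether the arrays were paired. On simulated data for clone against transgenic cells, over 12446 genes with 200 changed, the fit recovered 33.6% of 1.5-fold, 75% of 2-fold and 99% of 4-fold changes, with 6.56% false calls. In the data 43.8% of genes were called, far more than were changed in the simulation. The simulated rates therefore do not give the sensitivity of the fit on these data. Figures were drawn with matplotlib 3.10.9.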

Additional observations from a re-analysis of the deposited data

How the results depend on the processing

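Alternatives were pseudocounts of 1 and 50, no filter, a filter at the 60th percentile, quantile normalization, eBayes without trend or robust, a test against a 2-fold difference, a replicate block, leaving out shared and cross-hybridizing probe sets, the mean over probe sets and each array left out in turn. Sptbn1 was called lower in all 16, with differences of -6.03 to -3.91. All but the mean over probe sets used 1452143_at, which was the brightest only through its transgenic signals. These settings are thus not independent support. Probe set 1419255_at, brighter in clone cells (mean 253.7 against 88.1), differed by -2.46 to -2.23 over its 15 alternatives. Add1 and Coro1a were called in none of the 16. Add3 lost its call only against a 2-fold difference, as did Sptan1; Ezr lost it there and with the mean over probe sets (0.38, adjusted p = 0.130). Against a 2-fold difference 1 member was called, 0 higher and 1 lower. So were 5 member probe sets, 0 higher and 5 lower, and 6 partner genes, 1 higher and 5 lower. Over all 12446 genes, 325 were called higher and 396 lower in that setting, and 2631 and 2678 with the mean over probe sets. With the mean over probe sets 4 members were called, 1 of them higher, and Rdx differed by -0.0052. That mean also moved Msn (-0.62), Plcg1 (-0.84), Rhoa (0.33), Ssh1 (-0.50), Wipf1 (-0.41) and Stk4 (-1.08), all still called, and Stk4 was at -1.14 without shared probe sets. The cause was not tested. Without 1 array, 4 to 6 members were called, 2 to 4 higher and 2 to 3 lower, with 4 called and 2 higher without the first transgenic array. Member probe sets called ranged from 13 to 14, and partner genes from 24 to 34, with 15 to 22 lower and 15 without the second transgenic array. With the replicate block, the third clone array has no partner and drops out. In that setting 5 members were called against 7, with Msn (-0.30, adjusted p = 0.117) and Ank3 (0.71, 0.0769) no longer called. Calls over all 12446 genes moved too, from 2742 higher and 2706 lower in the main fit to 2282 and 2351 with the block. Without 1 clone array they were 2343 to 2752 higher and 2429 to 2740 lower. They were fewer than with the block where 1 transgenic array was left out, which leaves 1 in that group.

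Uncalled probe sets near 0 changed sign: 1416180_a_at of Rdx was at 0.0063 under quantile normalization and 0.023 with the replicate block, 1435288_at of Coro1a at 0.0036 and 0.043, and without 1 array they ranged from -0.14 to 0.048 and from -0.25 to 0.11. Probe set 1420954_a_at of Add1 ranged from -0.075 to 0.15 and 1456725_x_at of Ezr from -0.49 to 0.90. Of the member gene results 122 of 143 kept direction and call. Probe set signals near the filter, as in Ank3 and in clone cells for Sptbn1, set the limit of what the arrays resolve.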
